A study of Danio rerio with 12 samples.

Results

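Chromatin binding of p63 was compared with that of Sox3 in wild-type zebrafish embryos at 36 h post fertilization (hpf). Every peak in 2 p63 lists and 2 Sox3 lists was assigned to a merged region, and regions were sorted by the lists in which they had a peak. A p63-only site had a peak in both p63 lists and in neither Sox3 list, a shared site had a peak in all 4 lists, and a Sox3-only site had a peak in both Sox3 lists and in neither p63 list. Of 70351 merged regions, 6301 were p63-only sites, 1063 were shared sites and 21021 were Sox3-only sites, 28385 in all, while the whole series of 12 lists held 442098 peaks.

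p63 belongs to the p53 family of transcription factors (TFs) and is best known as a regulator of the epidermal lineage, where it acts in the basal cells of the stratified epithelium. Sox3 is a SoxB1 factor that binds DNA through an HMG domain and is expressed in neural progenitors. Both proteins recognise DNA sequences of their own, and their expression domains meet at the border between the surface ectoderm and the neural plate.

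All 4 libraries came from pooled whole embryos of wild-type AB/Tübingen zebrafish at 36 hpf, of which 2 were precipitated with an antibody against p63 and 2 with an antibody against Sox3. They were made by ChIPmentation, in which Tn5 transposase adds adaptors to immunoprecipitated chromatin, and the study calls the 2 libraries of a factor biological replicates. The other 8 lists of the series were p63 at 80% of epiboly and at 24 hpf in wild-type embryos (2 libraries each), Sox3 in wild-type embryos at the same stages (1 library each) and Sox3 at 36 hpf in tp63 mutant embryos (2 libraries), and were used here only as readouts that did not define the sites. Whole embryos hold many cell types, so peaks of both factors in a region do not show that both bound in the same cells, and fewer bound cells cannot be told apart from weaker binding per cell. The lists hold only peaks past the threshold of the peak caller, so binding below it is not seen here.

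The p63 lists were shorter than the Sox3 lists and came from fewer tags. They held 16993 peaks from 5.63 M tags (M, megatags) in p63 replicate 1 and 9538 peaks from at most 1.04 M tags in p63 replicate 2, against 51504 peaks from 7.97 M tags in Sox3 replicate 1 and 29082 peaks from 5.75 M tags in Sox3 replicate 2. These tag numbers were recovered from the peaks. The uniquely mapped reads that the study reports were far fewer in both p63 libraries than in both Sox3 libraries. They were fewest in p63 replicate 2, where they were a small part of all reads. On the log2 scale the mean peak number was 13.64 ± 0.59 for p63 and 15.24 ± 0.58 for Sox3 (SD, n = 2 each), a difference of −1.60. The ranges of the factors did not overlap, but an exact two-sided permutation test over 2 lists against 2 cannot go below p = 0.333, which was its value here (0.333 after Benjamini-Hochberg adjustment over 4 such tests), so no difference between the factors could reach a threshold of 0.05. Both p63 lists had fewer tags than either Sox3 list, so depth and factor cannot be told apart as the origin of the difference in list length. By tags, p63 replicate 1 and Sox3 replicate 2 were close (5.63 M and 5.75 M) and held 16993 and 29082 peaks, but their uniquely mapped reads were not close. Fold enrichment here is the deposited ratio of summit tags over the local background, taken within a library, and its median was 8.22 and 9.88 in the p63 lists, against 7.13 and 8.08 in the Sox3 lists. This median was lower the longer the list, and the part of list length in it was not tested. Median peak width was 198 and 183 bp in the p63 lists, against 200 and 225 bp in the Sox3 lists, a difference of −0.16 on the log2 scale (exact two-sided permutation p = 0.333, n = 2 each). That difference was −0.72 at equal list length, −0.31 with a −log10 q of at least 10 and −0.071 to −0.24 with a list left out.

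The first question was how the regions fell into the possible patterns of presence. Most regions belonged to 1 list: 38600 of 70351 (54.9%) had a peak in a single list, and 26031 of these came from Sox3 replicate 1. p63-only sites made up 8.96% of all merged regions, shared sites 1.51% and Sox3-only sites 29.9%. These shares are set by the lists themselves and nothing was read from them. Taken as binding sites (BSs) present in both lists of a factor, there were 8124 p63 BSs and 23468 Sox3 BSs. Shared sites were 13.1% of p63 BSs (95% Clopper-Pearson interval 12.4 to 13.8) and 4.53% of Sox3 BSs (4.27 to 4.80), intervals that cover counting error only. p63-only sites were 77.6% of p63 BSs, and Sox3-only sites were 89.6% of Sox3 BSs.

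**Figure D1:**
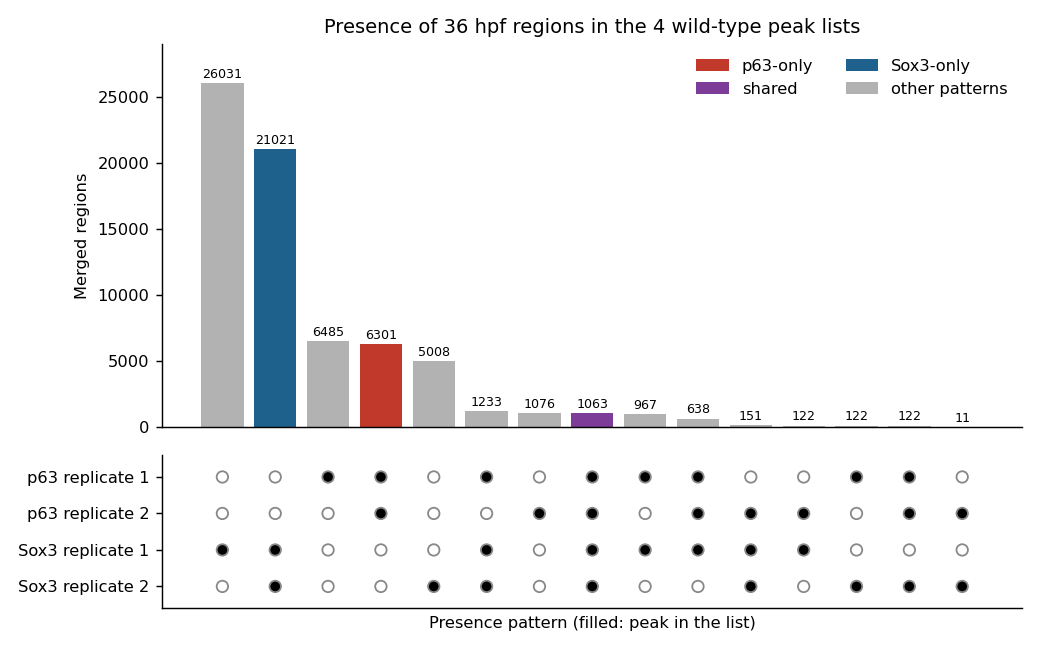
Number of merged regions (bars, vertical axis) with each pattern of presence in the 4 wild-type peak lists at 36 hpf; filled circles below a bar mark the lists with a peak. The pattern with a peak in Sox3 replicate 1 alone holds 26031 regions, and the shared pattern, with 1063 regions, is smaller than the p63-only (6301) and Sox3-only (21021) patterns.

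Between these classes lay sites that one factor bound in both lists and the other in 1 list. Of the p63 BSs, 760 (9.36%) had a peak in exactly 1 Sox3 list, 638 of them in Sox3 replicate 1 and 122 in Sox3 replicate 2. Of the Sox3 BSs, 1384 (5.90%) had a peak in exactly 1 p63 list, 1233 of them in p63 replicate 1 and 151 in p63 replicate 2. For both factors the longer list supplied most of these peaks. The single peaks were weak ones: at the 638 sites found with Sox3 replicate 1, the Sox3 peak had a median within-list percentile of 36.0 by −log10 q, and at the 1233 sites found with p63 replicate 1, the p63 peak had a median percentile of 30.3. In each list a percentile of 100 is the most significant peak and 0 the least. A site of this kind is counted as neither solo nor shared, so the number of shared sites moved with the rule on replicates: with a peak of either replicate counted as presence, 13862 regions were p63-only, 4429 shared and 52060 Sox3-only. With p63 replicate 2 left out, 12801 regions were p63-only and 2294 shared, and with Sox3 replicate 2 left out, 1696 were shared, or 20.9% of p63 BSs, and 47309 Sox3-only.

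A larger share of p63 peaks than of Sox3 peaks overlapped the other factor. A Sox3 peak of either list lay at 24.7% of the peaks of p63 replicate 1 and 21.6% of those of p63 replicate 2, whereas a p63 peak of either list lay at 8.15% of the peaks of Sox3 replicate 1 and 9.12% of those of Sox3 replicate 2. The mean share was 23.1% ± 2.16 for p63 and 8.63% ± 0.689 for Sox3 (SD, n = 2 each), a difference of 14.5 percentage points with no overlap between the factors (exact two-sided permutation p = 0.333, the smallest possible). Overlap is mutual, and the overlapping peaks numbered 4192 and 2061 in the p63 lists and 4195 and 2652 in the Sox3 lists. The shares divide these numbers by list length, so their difference largely restates the difference in list length. Without Sox3 replicate 1, the longest list, the difference in shares was 4.86 points, and with a −log10 q of at least 10 it was 8.45 points. With each list restricted to its 9538 most significant peaks, 7.64% and 7.0% of the p63 peaks overlapped a Sox3 peak and 7.64% and 7.56% of the Sox3 peaks overlapped a p63 peak, a difference of −0.278 percentage points. At that length there were 6487 p63-only sites, 384 shared sites and 7031 Sox3-only sites, and 5.49% of p63 BSs were shared.

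The share of p63 peaks with a Sox3 peak did not climb evenly with p63 rank. In p63 replicate 1 it was 29.2% in the least significant decile of the list (95% Clopper-Pearson interval 27.1 to 31.4), 20.2% in the decile ranked 8 of 10 (18.3 to 22.2) and 28.5% in the most significant decile (26.4 to 30.8). In p63 replicate 2 it was 24.9% (22.2 to 27.8) in the least significant decile, 16.8% (14.5 to 19.4) in the decile ranked 5 of 10 and 33.9% (30.9 to 37.0) in the most significant decile. Both p63 lists thus had their lowest share between the ends of the ranking when a peak of either Sox3 list counted. Among the top 1% of peaks, 48.8% of 170 peaks in p63 replicate 1 (41.1 to 56.6) and 53.7% of 95 peaks in p63 replicate 2 (43.2 to 64.0) overlapped a Sox3 peak. For Sox3 the share with a p63 peak was 5.0% in the least significant decile of replicate 1 and 11.1% in its most significant decile, and 7.46% and 11.8% in the same deciles of replicate 2. In the top 1% it was 12.2% of 515 peaks (9.53 to 15.4) in Sox3 replicate 1 and 16.9% of 290 peaks (12.8 to 21.7) in Sox3 replicate 2. With a peak in both Sox3 lists required, the dip was slight in p63 replicate 1. There the share was 12.9% in the least significant decile, 11.8% in the decile ranked 5 of 10 and 16.0% in the most significant. In p63 replicate 2 it was 13.9% in the least significant decile, 9.81% in the decile ranked 6 of 10 and 17.6% in the most significant. In the top 1% it was 25.3% and 31.6% in p63 replicates 1 and 2. No test was made over peaks, which are not replicates.

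**Figure D2:**
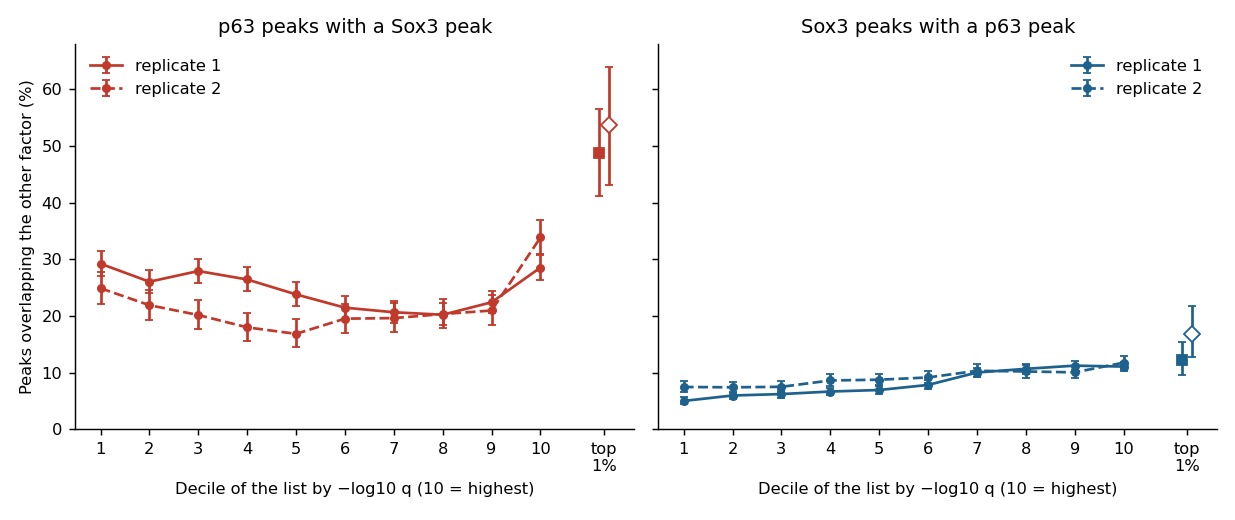
Share of peaks (vertical axis, percent) that overlap a peak of the other factor in either of its lists, by decile of the list ranked on −log10 q (horizontal axis, 10 the most significant) and in the top 1%, for p63 lists (left) and Sox3 lists (right); solid and dashed lines are replicates 1 and 2 and bars are 95% Clopper-Pearson intervals. The p63 curves dip between the ends and reach 48.8% and 53.7% in the top 1%, while the Sox3 curves climb from 5.0% and 7.46% to 11.1% and 11.8% over the deciles.

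Each factor was slightly more significant at shared sites than where it was alone. For p63 the median percentile was 77.2 at shared sites against 74.3 at p63-only sites in replicate 1, and 58.6 at shared sites against 55.6 at p63-only sites in replicate 2. The gain was 2.94 and 2.96 percentile points (mean 2.95 ± 0.0138, SD, n = 2). Here and for Sox3, both lists of a factor were read at the same sites, so the SD does not cover the choice of sites. For Sox3 the median percentile was 80.9 at shared sites against 76.1 at Sox3-only sites in replicate 1, and 64.1 at shared sites against 58.5 at Sox3-only sites in replicate 2, a gain of 4.72 and 5.63 percentile points (mean 5.18 ± 0.644, SD, n = 2). The difference of the gains, p63 minus Sox3, was −2.23 percentile points (exact two-sided permutation p = 0.333, the smallest possible). At equal list length that difference was 4.93 points, and it was −7.19 and −12.6 points without Sox3 replicates 1 and 2, so the order of the factors was not stable. The Sox3 gain was 10.4 points without Sox3 replicate 1, 16.4 points without Sox3 replicate 2 and 2.27 points without p63 replicate 2. The medians lay close together beside the spread over sites, since the interquartile range of shared sites ran from percentile 57.4 to 90.3 in p63 replicate 1 and from 64.2 to 91.1 in Sox3 replicate 1. The gain did not follow the number of lists of the other factor. At p63 BSs with exactly 1 Sox3 list the median p63 percentile was 78.0 and 65.1 in replicates 1 and 2, above shared sites. At Sox3 BSs with exactly 1 p63 list the median Sox3 percentile was 76.1 and 58.4, close to Sox3-only sites.

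The direction depended on how strength was measured. By fold enrichment all 4 lists were lower at shared sites: the median was 10.7 at shared sites against 11.6 at p63-only sites in p63 replicate 1, 10.3 against 10.7 in p63 replicate 2, 9.46 at shared sites against 9.72 at Sox3-only sites in Sox3 replicate 1, and 8.44 against 8.86 in Sox3 replicate 2. Ranked by fold enrichment, the difference in median percentile, shared minus solo, was −5.25 and −2.58 points for p63 and −2.06 and −5.06 points for Sox3. At p63 BSs with exactly 1 Sox3 list the median p63 fold enrichment was 12.2 and 12.1 in replicates 1 and 2, above both shared and p63-only sites. At Sox3 BSs with exactly 1 p63 list that of Sox3 was 9.34 and 8.27, below both shared and Sox3-only sites. Shared sites had more tags at the summit, with a median of 29 against 24 at p63-only sites in p63 replicate 1 and 17 against 14 in p63 replicate 2, and 29 against 23 at Sox3-only sites in Sox3 replicate 1 and 22 against 18 in Sox3 replicate 2. They also had a higher local background, with a median of 1.39 tags against 1.12 at p63-only sites in p63 replicate 1, 0.464 against 0.348 in p63 replicate 2, 1.70 against 1.38 at Sox3-only sites in Sox3 replicate 1 and 1.29 against 1.06 in Sox3 replicate 2. Both tags and background were thus higher at shared sites in every list, and the part of the local background in the opposite directions was not tested. The gain of p63 by −log10 q was also turned when p63 replicate 2 was left out (−0.75 points) and when a peak in either replicate counted as presence (−0.25 points).

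Peaks of both factors were wider at shared sites. Median p63 width was 311 bp at shared sites against 266 bp at p63-only sites in p63 replicate 1, and 203 bp against 188 bp in p63 replicate 2. For Sox3 it was 327 bp at shared sites against 283 bp at Sox3-only sites in Sox3 replicate 1, and 275 bp against 252 bp in Sox3 replicate 2. The log2 ratio of shared over solo sites was 0.23 and 0.11 for p63 and 0.21 and 0.13 for Sox3, positive in all 4 lists. The mean Sox3 ratio was 0.35 without Sox3 replicate 2 and 0.11 without p63 replicate 2. Whole merged regions had a median width of 445 bp at shared sites, 277 bp at p63-only sites and 321 bp at Sox3-only sites, but a shared region joins peaks of 4 lists and a solo region those of 2, so its width is partly fixed by the rule. A wider peak also reaches an overlap of 1 bp more readily, so the contrast in peak width is partly fixed as well. With an overlap of 50% of both peaks the mean log2 ratio was 0.19 for p63 and 0.035 for Sox3. With summits within 150 bp it was 0.13 and 0.097.

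**Figure D3:**
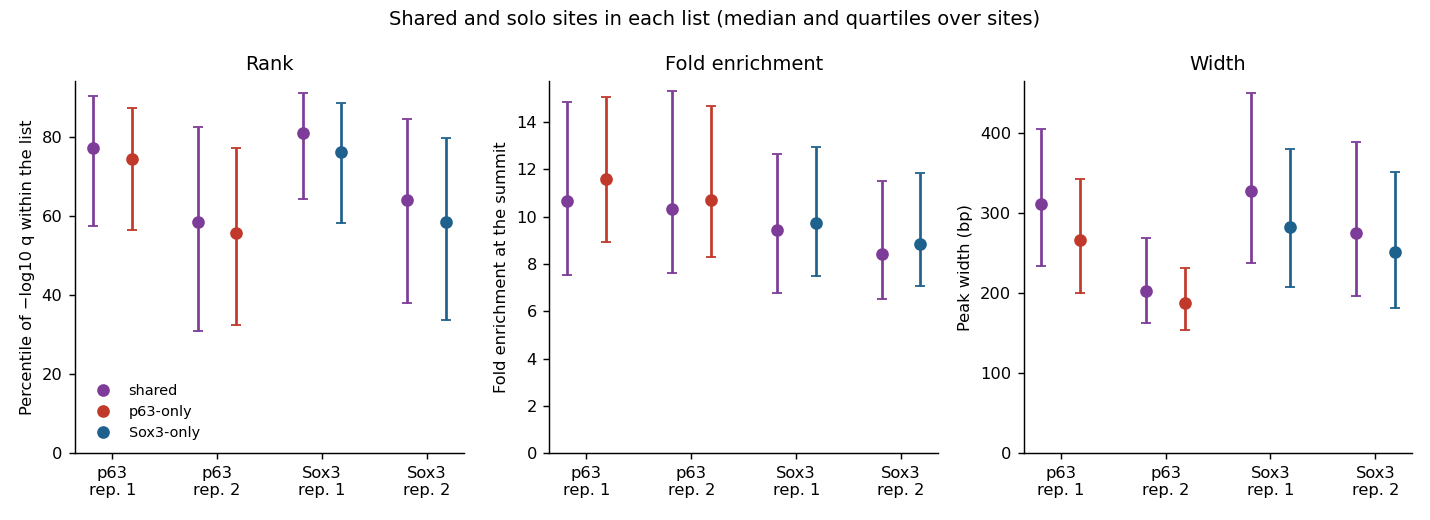
Percentile of −log10 q within the list (left), fold enrichment at the summit (middle) and peak width in bp (right) of the best peak of each list at shared sites (purple) and at p63-only (red) or Sox3-only (blue) sites; points are medians and bars the quartiles over sites. In all 4 lists shared sites lie slightly higher in percentile and width and slightly lower in fold enrichment, with wide overlap of the quartiles.

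At shared sites the ranks of the factors hardly went together. Over 1063 shared sites, Spearman's rho of the mean p63 percentile with the mean Sox3 percentile was 0.0512, a description over sites that share libraries. For single lists it was between −0.00694 and 0.121 in the 4 pairs of a p63 with a Sox3 list, against 0.781 between the p63 replicates and 0.854 between the Sox3 replicates. There were 158 shared sites in the top decile of both p63 lists and 182 in the top decile of both Sox3 lists, and 27 (2.54%) were in the top decile of all 4. In 77 shared sites (7.24%) p63 lay above the middle of both its lists while Sox3 lay below the middle of both of its own, and in 96 (9.03%) the reverse held.

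The summits of p63 and Sox3 lay near each other at shared sites, but farther apart than the summits of replicates. The median distance between a p63 summit and a Sox3 summit was 57 and 62 bp for p63 replicate 1 with Sox3 replicates 1 and 2, and 61 and 67 bp for p63 replicate 2 with Sox3 replicates 1 and 2 (mean 61.8 ± 4.11 bp, SD over 4 pairs). Between replicates it was 24 bp for p63 and 29 bp for Sox3. The mean of the 4 medians between factors exceeded the mean of the medians within factors by 35.2 bp, the largest difference among the 3 ways to pair the 4 lists (exact one-sided permutation p = 0.333, the smallest possible), while the other pairings gave −18.0 and −17.2 bp. Summits lay over 300 bp apart at 7.90% to 8.47% of shared sites for the pairs of a p63 with a Sox3 list, against 0.941% for the p63 replicates and 1.79% for the Sox3 replicates. The p63 summit fell inside the Sox3 peak at 75.9% to 85.6% of shared sites over the 4 pairs of lists, and the Sox3 summit fell inside the p63 peak at 67.9% to 80.7%. At 962 of 1063 shared sites (90.5%) each list had exactly 1 peak, and 50 sites had 2 or more p63 peaks in a list and 63 had 2 or more Sox3 peaks in a list. At some shared sites the peaks did not touch in a given pair of lists and were joined by another list: this was so at 1.03% to 8.94% of sites for pairs of a p63 with a Sox3 list.

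The nearest Sox3 peak to a p63-only site was usually several kb away. Of the 6301 p63-only sites, 6285 had a Sox3 peak on the same chromosome or scaffold, at a median gap of 7089 bp between edges (quartiles 3002 and 15946 bp). A Sox3 peak lay within 1 kb of 8.13% of them, within 5 kb of 38.9%, within 10 kb of 60.7% and within 50 kb of 96.2%. The share within 10 kb was 39.9% without Sox3 replicate 1, 38.0% with a −log10 q of at least 10 and 20.2% at equal list length. The median gap was 7826 bp to peaks of Sox3 replicate 1 and 15265 bp to those of Sox3 replicate 2, so it moved with list length. With Sox3 replicate 1 left out of the classes as well, it was 14724 bp. To the nearest Sox3 BS present in both lists it was 20050 bp, and 33.6% lay within 10 kb. The gap hardly varied with p63 rank: its median was 7076, 7219, 7228 and 6922 bp from the lowest to the highest quartile group of p63-only sites by mean p63 percentile.

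From the other side, Sox3-only sites lay farther from p63 peaks, of which there were fewer. The median gap of 20867 Sox3-only sites to the nearest p63 peak was 21031 bp (quartiles 7984 and 48062 bp), and a p63 peak lay within 10 kb of 29.8%. Distance to the nearest other region with a Sox3 peak can be compared over the 3 classes, since the targets are the same 56489 regions. Its median was 7082 bp for p63-only sites, 4826 bp for shared sites and 5529 bp for Sox3-only sites, and within 1 kb there was such a region for 8.16%, 22.1% and 15.5% of the sites in the same order. Distance to the nearest other of 18291 regions with a p63 peak had a median of 15862 bp for p63-only sites, 12518 bp for shared sites and 20998 bp for Sox3-only sites. Shared sites were thus the nearest to further peaks of either factor. Shared sites themselves were scattered, with a median gap of 231546 bp to the next shared site, although 5.08% had another within 1 kb. The median gap to the next site of the same class was 44264 bp for p63-only sites, of which 16.9% had another within 10 kb, and 10746 bp for Sox3-only sites, of which 47.9% had another within 10 kb.

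**Figure D4:**
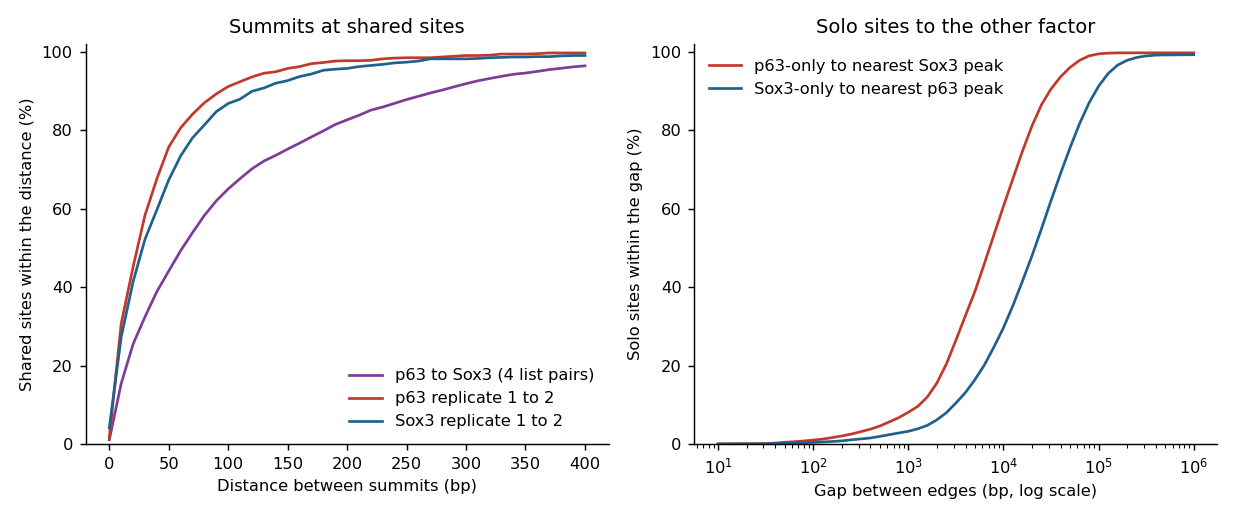
Left, share of shared sites (percent) whose summits lie within a given distance in bp, for pairs of a p63 with a Sox3 list (purple), the p63 replicates (red) and the Sox3 replicates (blue); right, share of p63-only sites (red) within a given edge-to-edge gap of a Sox3 peak and of Sox3-only sites (blue) within that gap of a p63 peak, on a log axis. The purple curve reaches its median near 61.8 bp, against 24 and 29 bp for the replicates, and the medians on the right are 7089 bp for p63-only and 21031 bp for Sox3-only sites.

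The edge of the rule lay at touching peaks. On chromosomes 1 to 25, the p63-only site closest to Sox3 was chr7:68226814-68227004 (build GRCz10, 1-based), which abutted a Sox3 peak with a gap of 0 bp and had a p63 fold enrichment of 8.50 and 8.16 in replicates 1 and 2. The next was chr5:71229521-71229948, 4 bp from a Sox3 peak, with a p63 fold enrichment of 22.4 and 18.3. Of the 6225 p63-only sites on these chromosomes, 28 (0.450%) lay under 50 bp from a Sox3 peak and 287 (4.61%) within 500 bp. On the other side of the edge, the shared sites with the smallest overlap of a p63 with a Sox3 peak were chr10:16354118-16354684 (4 bp) and chr13:16741304-16741854 (9 bp), whose summits spanned 360 and 323 bp over the 4 lists. The median of the largest overlap in a shared site was 233 bp, and 14 of 1031 sites (1.36%) overlapped by under 50 bp.

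The p63-only sites of highest mean percentile had strong p63 peaks, and their nearest Sox3 peak lay at least 1961 bp away. At chr21:30733421-30733942 the fold enrichment of p63 was 23.0 with 111 tags at the summit in replicate 1 and 32.5 with 89 tags in replicate 2, and the nearest Sox3 peak lay 15481 bp away. At chr8:40327793-40328230 it was 28.8 and 33.1 (103 and 77 tags), and the nearest Sox3 peak lay 24439 bp away. At chr4:28338360-28338744 it was 29.4 and 34.1 (96 and 78 tags), with a gap of 1961 bp. The next were chr1:50144626-50145008 (27.9 and 34.1, gap 2327 bp) and chr25:22796817-22797162 (19.5 and 28.6, gap 4649 bp). All 5 also had p63 peaks at earlier stages, in 3 or all 4 of the earlier p63 lists, and chr8:40327793-40328230 and chr1:50144626-50145008 had a Sox3 peak at 24 hpf with a fold enrichment of 8.52 and 7.47. A Sox3 peak at chr1:50144626-50145008 was also in tp63 mutant replicate 2, with a fold enrichment of 5.71. The p63 summits of replicates 1 and 2 were at 30733708 and 30733701 on chromosome 21 and at the same base, 22797017, on chromosome 25. No annotation of this genome build was used, so genes at these sites were not analysed here.

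Among Sox3-only sites the highest mean percentiles belonged to chr11:37480104-37480852, with a Sox3 fold enrichment of 19.8 and 19.9 and 49322 bp to the nearest p63 peak, and to chr1:4552587-4553229, with 20.7 and 21.0 and a gap of 9601 bp. They were followed by chr11:43570539-43571080 (28.1 and 28.4, gap 45734 bp), chr7:45760328-45760700 (29.1 and 28.0, gap 9886 bp) and chr5:63605226-63605766 (22.6 and 25, gap 84257 bp). The last 3 had a peak in all 8 other lists, earlier p63 lists included, where the p63 fold enrichment was between 5.01 and 9.63. Earlier p63 peaks were also present at the other sites named. At chr11:37480104-37480852 the p63 fold enrichment was 3.93 at 80% of epiboly and 6.38 at 24 hpf, both in replicate 2 only. At chr1:4552587-4553229 it was 5.28 and 5.82 in replicates 1 and 2 at 80% of epiboly, and 5.05 at 24 hpf in replicate 2 only.

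All 5 shared sites of highest mean percentile had a peak in each of the 12 lists. At chr20:4437664-4438054 the fold enrichment was 35.3 and 36.6 for p63 and 32.4 and 35.1 for Sox3, the 4 summits spanned 15 bp, and the other 8 lists had 27.9 to 35.2. At chr17:53292600-53292870 it was 30.4 and 29.7 for p63 and 33.9 and 30.6 for Sox3, and all 4 summits fell on base 53292738. The others were chr4:57548173-57548619 (26.7 and 28.0 for p63, 29.3 and 27.2 for Sox3, summits within 48 bp), chr5:826067-826704 (21.5 and 21.8 for p63, 19.7 and 19.0 for Sox3, within 30 bp) and chr24:38404519-38404961 (25.1 and 22.8 for p63, 26.4 and 27.0 for Sox3, within 5 bp). In the other 8 lists the fold enrichments were less even at some of these sites, such as 9.24 in p63 replicate 2 and 22.7 in Sox3 at 24 hpf at chr4:57548173-57548619, and 23.5 and 21.5 in the p63 lists and 11 in Sox3 at 80% of epiboly at chr5:826067-826704. Neither a control library nor a list of regions enriched with any antibody was used here, and the part that such enrichment had in the shared class was not tested.

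Sites with a peak in all 12 lists were therefore counted. They were 200 of the 1063 shared sites (18.8%, 95% Clopper-Pearson interval 16.5 to 21.3), and a peak in all 8 other lists was found at 5 p63-only sites (0.0794%) and 550 Sox3-only sites (2.62%), against 1.37% of all merged regions. The 200 sites were strong in both factors, with a median percentile of 86.9 and 68 in the p63 lists and 91.7 and 87.4 in the Sox3 lists, whereas the other 863 shared sites had 74.5 and 57.0 in the p63 lists and 77.6 and 57.5 in the Sox3 lists. To be among the 200, a site needed a peak past the threshold in 8 further lists, so this contrast is partly set by the selection. Median summit distances between a p63 and a Sox3 list ran from 35 to 56 bp at the 200 sites and from 60 to 69 bp at the 863. Spearman's rho of the mean p63 with the mean Sox3 percentile was 0.417 over the 200 sites and −0.0632 over the 863, both as descriptions over sites. Of the peaks in the top 1% of p63 replicates 1 and 2, 8.24% and 7.37% belonged to the 200 sites. For comparison, 25.3% and 31.6% of these peaks overlapped a peak of both Sox3 lists. Membership of the 200 also needed a peak in the Sox3 list at 80% of epiboly, the shortest, with 6045 peaks. The 200 sites need not hold every region enriched with any antibody, and the part of such regions in this overlap was not tested. Without all regions that had a peak in the 8 other lists, a setting chosen after the data were seen, shared sites were 10.9% of p63 BSs. The rank gain at shared sites then shrank to 0.794 percentile points for p63 (0.230 and 1.36 in replicates 1 and 2) and to 0.649 points for Sox3 (1.81 and −0.52), so that it was no longer of 1 sign in the Sox3 lists. The width ratio fell to 0.12 for p63 and to 0.086 for Sox3 on the log2 scale. The setting took out 18.8% of shared sites, which were strong ones, against 0.0794% of p63-only and 2.62% of Sox3-only sites. The smaller rank gains and width ratios are thus partly set by the filter.

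The 8 lists that did not define the classes also bear on the antibody labels. At 24 hpf, p63 replicates 1 and 2 had a peak at 58.6% and 73.0% of p63-only sites and at 10.9% and 22.9% of Sox3-only sites, against 14% and 22.2% of all merged regions, so Sox3-only sites lay near the share over all regions. In tp63 mutant embryos at 36 hpf, Sox3 replicates 1 and 2 had a peak at 9.67% and 5.59% of p63-only sites and at 98.1% and 97.1% of Sox3-only sites, against 63.1% and 55.6% of all merged regions. In these 4 lists each class was found more often with its own antibody. At 80% of epiboly this did not hold for Sox3-only sites, which had a p63 peak in 32.1% and 36.5% of cases and a Sox3 peak in 13.5%. The lists differ in length (14707 and 25659 peaks for p63 at 24 hpf, 81578 and 59786 peaks for Sox3 in the mutant, 6045 peaks for Sox3 at 80% of epiboly), so their shares are not on 1 scale.

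At 80% of epiboly p63 was found more often at shared sites than at p63-only sites. At 80% of epiboly, a peak in both p63 lists lay at 43.5% of p63-only sites (95% Clopper-Pearson interval 42.3 to 44.8), 75.7% of shared sites (73.0 to 78.3) and 27.1% of Sox3-only sites (26.5 to 27.7), against 21.2% of all merged regions. The order was the same in each list on its own, with 47.4% and 50.7% of p63-only sites, 79.1% and 80.8% of shared sites and 32.1% and 36.5% of Sox3-only sites in replicates 1 and 2, against 25.3% and 28.1% of all merged regions. At 24 hpf, both p63 lists had a peak at 56.5% of p63-only sites (55.2 to 57.7), 67.0% of shared sites (64.1 to 69.8) and 7.87% of Sox3-only sites (7.51 to 8.25), against 12% of all merged regions. Shared sites were thus ahead of p63-only sites by 32.2 points at 80% of epiboly and by 10.5 points at 24 hpf. The 200 shared sites with a peak in all 12 lists are part of these counts. Without regions that had a peak in all 8 other lists, a setting chosen after the data were seen, the shares at 24 hpf were 59.3% of 863 shared sites (56.0 to 62.6) and 56.4% of 6296 p63-only sites (55.2 to 57.6), a lead of 2.91 points, and the lead at 80% of epiboly was 26.6 points. Every region so removed had a peak in both p63 lists at both stages, so the smaller leads are partly set by the filter. How much of each fall the filter sets was not tested. At 24 hpf the intervals of shared and p63-only sites then overlapped. All 4 earlier p63 lists had a peak at 35.1% of p63-only sites and 56.2% of shared sites, against 7.78% of all merged regions. No earlier p63 list had one at 19.4% of p63-only sites and 5.27% of shared sites, against 60.1% of all merged regions. The p63 lists at 80% of epiboly were the longest of the p63 lists (36652 and 42668 peaks), and the part of list length in these shares was not tested. Presence was scored as any overlap with the whole merged region. Shared regions join Sox3 peaks and were wider, with a median of 445 bp against 277 bp at p63-only sites. A wider region meets a peak of another list more readily, and the part of width was not tested.

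Sox3 binding at other stages and in the mutant divided the p63 sites along the same line as Sox3 at 36 hpf. The wild-type Sox3 list at 24 hpf had a peak at 19.5% of p63-only sites (18.5 to 20.5), 94.8% of shared sites (93.3 to 96.1) and 86.8% of Sox3-only sites (86.3 to 87.2), against 51.7% of all merged regions. The shorter list at 80% of epiboly (6045 peaks) had one at 0.619% of p63-only sites, 24.6% of shared sites and 13.5% of Sox3-only sites, against 6.35% of all merged regions. Either of these 2 earlier Sox3 lists had a peak at 19.7% of p63-only sites, 94.8% of shared sites and 86.9% of Sox3-only sites, against 51.9% of all merged regions. In tp63 mutant embryos at 36 hpf, both Sox3 lists had a peak at 3.81% of p63-only sites (3.35 to 4.31), 94.8% of shared sites (93.3 to 96.1) and 96.3% of Sox3-only sites (96.0 to 96.5), against 52.7% of all merged regions. Sites with both p63 lists and 1 Sox3 list had a peak in 62.5% and 48.4% of cases in the 2 mutant lists, near or below the 63.1% and 55.6% of all merged regions. By the way regions were built, 80.3% of all merged regions had a wild-type Sox3 peak at 36 hpf. The share over all regions in a Sox3 list is thus mostly that of Sox3 regions. Any of the 4 Sox3 lists outside the comparison had a peak at 24.1% of p63-only sites, 99.6% of shared sites and 99.2% of Sox3-only sites, against 70.3% of all merged regions, so that 4781 p63-only sites had no Sox3 peak in any list of the series. None of the 8 other lists had a peak at 17.0% of p63-only sites, 0.0941% of shared sites (1 site) and 0.728% of Sox3-only sites, against 20.7% of all merged regions. These shares too were scored over whole merged regions, which were wider at shared sites, and the part of width was not tested.

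**Figure D5:**
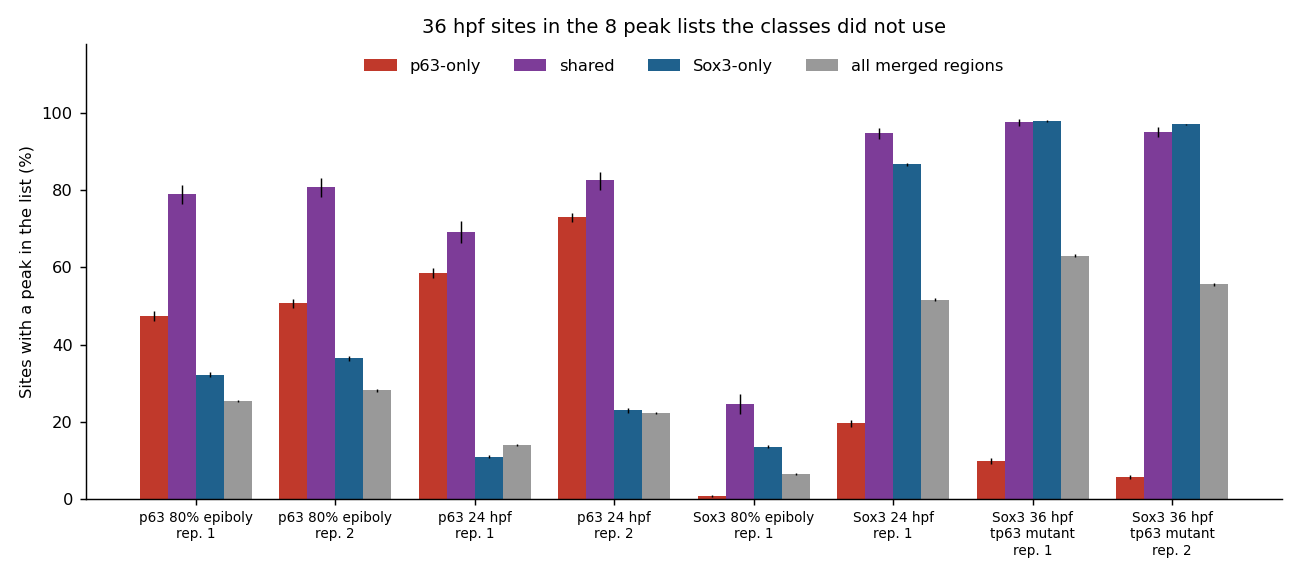
Share of p63-only (red), shared (purple) and Sox3-only (blue) sites and of all merged regions (grey) at 36 hpf that have a peak in each of the 8 lists that did not define the classes (vertical axis, percent); bars show 95% Clopper-Pearson intervals. p63-only sites reach 47.4% to 73.0% in the earlier p63 lists and stay at 19.5% or lower in the Sox3 lists, whereas shared sites reach 69.3% to 82.6% in the earlier p63 lists and 94.8% to 97.7% in the Sox3 lists at 24 hpf and in the mutant.

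The share of p63 BSs that were shared varied between chromosomes. On single chromosomes from 1 to 25, shared sites were 6.57% (chromosome 12, 18 shared sites) to 17.8% (chromosome 10, 49 shared sites) of p63 BSs. These are the extremes of 25 chromosomes and were given no intervals, so counting error was not separated from differences between chromosomes. Scaffolds outside chromosomes 1 to 25 held 1.21% of p63-only sites, 3.01% of shared sites (32 sites) and 1.41% of Sox3-only sites, against 1.77% of all merged regions, and there 26% of p63 BSs were shared. Leaving these scaffolds out gave 6225 p63-only, 1031 shared and 20725 Sox3-only sites.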

How the data were processed

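ChIPmentation libraries of p63 and Sox3 from wild-type embryos at 36 hpf were analysed from the deposited narrowPeak lists. The authors mapped reads to GRCz10 (danRer10) with Bowtie and called peaks with MACS2 in single libraries, at an FDR limit of 0.001 and an effective genome of 1.5 Gb, without a stated control. Tool versions are not given in the sources used here. In the deposited lists, fold enrichment is a ratio of summit tags over local background, with a pseudocount of 1 in both terms. The authors' −log10 p and −log10 q belong to that summit and increase with depth, and the deposited score, which follows −log10 q, was not needed. Since no value was scaled across libraries, peaks were ranked within lists.

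Peaks of the 4 lists that shared at least 1 bp were merged, and the best peak of a list in a region was that of highest −log10 q. Summit tags, background and tag totals were recovered from fold enrichment and −log10 p with the Poisson formula of the peak caller, which returned −log10 p with errors of at most 1.76e-04. Tag totals are those behind the peak calls, not reads sequenced, and that of p63 replicate 2 rests on 3 peaks and is an upper bound. The total of p63 replicate 1 was above the uniquely mapped reads that the study reports for it. Those of both Sox3 lists were far below theirs, and this mismatch was not resolved here. Lists were compared by exact permutation tests, and intervals are 95% Clopper-Pearson intervals. Replicates were checked for identity: the p63 lists had 1 interval in common with identical ends and the Sox3 lists 19. The labels name no batch.

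Named regions were, per class, the 5 of highest mean percentile on chromosomes 1 to 25, and the 2 on either side of the edge of the rule. The members, the rule and the lists of alternatives were chosen with earlier results of these data known. Gene lists and motif counts planned for a genome and annotation of this build were not used here. Python 3.11.15, pandas 2.3.3, numpy 2.4.6, scipy 1.17.1 and matplotlib 3.10.9 were used, and region building, gaps and tag recovery were tested on simulated data. Alternatives were limits on fold enrichment and −log10 q, equal list length, other overlap and replicate rules, chromosomes 1 to 25, ranks by fold enrichment, a replicate block, each list left out, and, added later, leaving out regions present in all other lists.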

Additional observations from a re-analysis of the deposited data

How the results depend on the processing

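The count of p63-only sites kept within 1.5 times its value under every alternative run except a peak in either replicate (13862) and leaving out p63 replicate 2 (6427 to 12801 with a list left out in turn). Shared sites numbered 515 with a −log10 q of at least 10, 384 at equal list length, 667 with an overlap of 50% of both peaks, 4429 with a peak in either replicate and 1156 to 2294 with a list left out. Sox3-only sites numbered 13785 with a −log10 q of at least 10, 7031 at equal list length, 52060 with a peak in either replicate and 21173 to 47309 with a list left out. The share of p63 BSs that were shared was 11.7% with a fold enrichment of at least 5, 9.04% with a −log10 q of at least 10, 5.49% at equal list length, 9.47% with an overlap of 50%, 10.4% with summits within 150 bp, 24.2% with a peak in either replicate, 10.9% without regions present in all 8 other lists (a setting chosen after seeing the data) and 12.4% to 20.9% with a list left out. In the same order of settings, the p63 rank gain at shared sites was 3.56, 3.25, 6.54, 5.92, 2.42, −0.25, 0.79 and −0.75 to 3.82 points, and it was 3.48 on chromosomes 1 to 25, 3.09 with the factors merged separately and −3.91 by fold enrichment. The Sox3 rank gain was 3.54, 7.93, 1.61, 2.18, 4.28, 10.3, 0.65 and 2.27 to 16.4 points, and −3.56 by fold enrichment. The difference of the gains, p63 minus Sox3, turned to 0.0283 with a fold enrichment of at least 5, 4.93 at equal list length and 0.14 without regions in all 8 other lists. The log2 width ratio at shared over solo sites stayed positive throughout, at 0.087 for p63 with a peak in either replicate and, for Sox3, 0.051 at equal list length, 0.035 with an overlap of 50%, 0.10 with summits within 150 bp, 0.24 with a peak in either replicate, 0.086 without regions in all 8 other lists and 0.11 to 0.35 with a list left out. The median p63-Sox3 summit distance was 67.5 bp with a fold enrichment of at least 5, 56.0 bp with a −log10 q of at least 10, 48.6 bp at equal list length, 42.2 bp with an overlap of 50%, 43.8 bp with summits within 150 bp, which fixes it in part, and 56.8 to 62.2 bp with a list left out. The median gap of p63-only sites to a Sox3 peak was 15925 bp with a −log10 q of at least 10, 42347 bp at equal list length, both with fewer Sox3 peaks, and 6969 to 14724 bp with a list left out. The difference in overlap shares was −0.28 points at equal list length. Other causes were not tested. The percentile in replicate 1 minus that in replicate 2 hardly correlated between p63 and Sox3 (Pearson's r = −0.0104 over 1063 shared sites). Percentiles remove differences that act on a whole list, so whether the replicate numbers pair libraries cannot be told from this value. A replicate block left the differences between factors at their values (−1.60 in log2 peak number) with an exact permutation p of 0.50, the smallest that 2 pairs allow. Motif and gene list counts were not run.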
